A study of Mus musculus with 27 samples.

Results

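Among the CpG-rich stretches sampled by RRBS (reduced representation bisulfite sequencing) in C2C12 myotubes, 204 autosomal stretches had a mean methylation level of 90% or more over the whole time course. These fully methylated regions are runs of measured positions, each at most 200 bp from the next and each with a level in all 27 libraries. A run held at least 10 positions, and it was kept where its mean level over positions and libraries was 90% or more. The 204 runs were 204 of 14301 autosomal runs and of 14720 runs on any chromosome. Another 9645 autosomal runs had a mean level under 10% and are called low runs, and 4452 lay between and are called intermediate runs. The X chromosome held 3 further runs at 90% or more among its 419 runs, and these were not counted as members. Members were chosen by their level, so their levels are given as a description without a test.

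C2C12 is an established mouse myoblast line whose cells fuse into multinucleated myotubes when serum is lowered, here to 2% horse serum. All groups were C2C12 cells given the same treatment, a shock of 50% horse serum for 2 h, which is used to bring the clocks of cultured cells into a common phase. The groups differ only in the time of harvest, at 12, 18, 24, 30, 36, 42, 48, 54 and 60 h after the shock, with 3 libraries at each time. No unshocked cells were analysed here, C2C12 is 1 line, and the labels do not say whether the 3 libraries of a time point came from separate cultures. P-values therefore measure the spread between these libraries only, which may be technical.

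In mammals most cytosines in CpG pairs are methylated, and the CpG-dense islands at gene starts are the main exception. Methyl groups on CpGs are copied onto the new strand after replication by DNMT1, so that a methylated region is kept through cell divisions, and they are set anew by DNMT3A and DNMT3B. Methylation within gene bodies is common in transcribed genes, whereas methylation of a CpG-rich start accompanies silencing. Genes used only in germ cells are a known class with CpG-rich starts that are methylated in somatic cells.

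The table of positions is not a genome-wide sample, which bears on every distance below. Of 937644 positions, 871894 (93.0%) had a level in all libraries. On the chromosomes with annotated starts, 81.5% of positions lay within 2000 bp of a gene start in the start table, and 98.5% lay within 2000 bp of such a start or of either edge of a gene. The number of positions fell from 18349 at 1501 to 2000 bp from the nearest start to 6024 at 2001 to 2500 bp. The sources used here do not say how the positions were selected. Methylated CpG runs farther from genes were thus largely outside what was measured.

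Of the 204 runs, 18 covered an annotated gene start. The promoter windows of the 6 with the highest level are printed because they show which CpGs around the start had a level. Each window runs 5′ to 3′ on the gene's strand, from 250 bases before the start to 50 bases from it, and comes from RefSeq on GRCm38.p6, the assembly that mm10 names. Capitals mark CpGs with a level in all 27 libraries, here called measured, and lower case marks all other bases, unmeasured CpGs included. The sources used here do not say whether levels were smoothed along the sequence, and neighbouring levels deviate together, so the level of a single CpG may hold those of its neighbours.
4933428G20Rik: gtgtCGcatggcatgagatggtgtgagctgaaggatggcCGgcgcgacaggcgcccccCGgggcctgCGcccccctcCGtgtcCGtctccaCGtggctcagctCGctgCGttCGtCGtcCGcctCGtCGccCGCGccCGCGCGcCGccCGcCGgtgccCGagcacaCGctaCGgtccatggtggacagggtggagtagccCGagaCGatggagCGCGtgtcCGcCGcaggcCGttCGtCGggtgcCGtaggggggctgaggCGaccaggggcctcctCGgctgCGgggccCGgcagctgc
Ube2d2b: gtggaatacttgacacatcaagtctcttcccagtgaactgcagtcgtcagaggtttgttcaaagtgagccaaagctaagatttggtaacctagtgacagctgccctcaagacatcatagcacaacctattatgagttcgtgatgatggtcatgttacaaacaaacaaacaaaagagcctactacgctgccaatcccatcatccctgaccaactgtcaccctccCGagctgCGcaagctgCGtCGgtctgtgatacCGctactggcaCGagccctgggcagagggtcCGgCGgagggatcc
Hsf5: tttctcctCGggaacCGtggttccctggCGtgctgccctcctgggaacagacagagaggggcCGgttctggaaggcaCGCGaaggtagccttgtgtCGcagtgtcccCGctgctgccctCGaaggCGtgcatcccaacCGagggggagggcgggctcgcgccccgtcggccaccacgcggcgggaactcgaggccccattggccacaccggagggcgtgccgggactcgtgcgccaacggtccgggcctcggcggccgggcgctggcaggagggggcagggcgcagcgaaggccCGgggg
Naa11: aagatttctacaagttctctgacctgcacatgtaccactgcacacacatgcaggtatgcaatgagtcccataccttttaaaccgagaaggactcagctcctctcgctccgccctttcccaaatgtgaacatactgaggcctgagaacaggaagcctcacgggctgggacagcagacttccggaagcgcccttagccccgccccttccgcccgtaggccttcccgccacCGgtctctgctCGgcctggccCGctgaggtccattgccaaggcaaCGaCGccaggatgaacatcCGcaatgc
Zglp1: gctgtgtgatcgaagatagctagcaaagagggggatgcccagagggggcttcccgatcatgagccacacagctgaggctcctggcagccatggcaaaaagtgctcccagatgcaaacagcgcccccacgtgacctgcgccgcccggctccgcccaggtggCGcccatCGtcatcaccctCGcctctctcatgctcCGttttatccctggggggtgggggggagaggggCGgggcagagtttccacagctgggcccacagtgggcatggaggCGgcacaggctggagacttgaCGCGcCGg
Ccdc152: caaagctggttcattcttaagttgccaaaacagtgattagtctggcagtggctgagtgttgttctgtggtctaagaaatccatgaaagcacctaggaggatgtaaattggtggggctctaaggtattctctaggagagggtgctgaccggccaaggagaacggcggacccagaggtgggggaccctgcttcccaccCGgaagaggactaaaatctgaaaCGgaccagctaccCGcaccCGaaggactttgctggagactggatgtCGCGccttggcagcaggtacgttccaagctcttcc

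The window of 4933428G20Rik lies at chr11:97500291-97500590 on the minus strand, and 39 of its 42 CpGs were measured, with a mean level of 97.8% and no CpG under 95.9%. Ube2d2b, a copy of a ubiquitin-conjugating enzyme gene that lies within Evi5, has its window at chr5:107829912-107830211 on the plus strand, and its 8 measured CpGs of 11 averaged 97.8%. All 8 stand in the stretch nearest the start, as the capitals show. Hsf5, a heat shock factor gene active in the testis, has its window at chr11:87616914-87617213 on the plus strand. Its 12 measured CpGs of 34 averaged 97.8% and lie mostly upstream, so the densest stretch of that island carried no level within the printed window. Naa11, a close copy of the gene for the catalytic subunit of an N-terminal acetyltransferase, has its window at chr5:97392281-97392580 on the minus strand, with 6 measured CpGs of 16 at 95.6%.

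The Zglp1 window, at chr9:21067044-21067343 on the minus strand, was uneven. Its 9 measured CpGs of 17 averaged 88.7% and ran from 77.1% to 97.8%. Zglp1 encodes a GATA-like zinc finger protein of germ cells. The Ccdc152 window, at chr15:3303477-3303776 on the minus strand, had 6 measured CpGs of 10, at 96.1%.

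By the median, the 18 starts were richer in CpG than annotated starts as a whole but poorer than starts in measured runs. Their windows of 300 bases held a median of 15.5 CpGs (7 to 42), against a median of 7 over all 31396 autosomal windows in the start table and 25 over the 7881 windows whose start lay in a measured run. The letters CCGG, the site cut by the restriction enzyme MspI that RRBS commonly uses (the labels write MpsI), were in 18 of 18 windows, in 53.5% of all windows and in 99.6% of windows with a start in a run. The E-box CACGTG, the letters recognised by CLOCK and BMAL1 among other factors, was in 6 of 18 windows (33.3%), against 7.14% of all windows and 11.0% of windows with a start in a run. TCCCGC, the core of sites bound by E2F factors, was in 6 of 18 (33.3%), against 20.2% and 43.8%. CAGCTG, an E-box bound by myogenic factors, was in 3 of 18 (16.7%), against 16.3% and 14.1%. Each motif was searched on both strands, no motif contains another, and a match describes letters only.

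Several of the 18 starts belong to genes known from germ cells and the testis. Ddx4 encodes the germ cell RNA helicase VASA, Mael acts in the piRNA pathway that silences transposons, Tuba3a is a testis alpha-tubulin, Papolb is the testis poly(A) polymerase, and Hspb9 and Dnajc5g encode chaperones known from the testis. The Ddx4 run (chr13:112652228-112652503) averaged 93.0% over 38 CpGs, and its libraries ran from 84.6% over a median of 93.2% to 99.3%. The Mael run (chr1:166238437-166238884) averaged 92.5% over 37 CpGs, with libraries from 84.5% over a median of 94.0% to 96.7%. Papolb (chr5:142529845-142530177) stood at 91.6%, Tuba3a (chr6:125285980-125286083) at 92.6%, Hspb9 (chr11:100713779-100714184) at 91.3% and Dnajc5g (chr5:31108249-31108369) at 90.5%. The SDs over the 27 libraries of these 6 runs lay between 2.46 and 3.46 points, and the 6 genes were grouped after their values were seen.

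Hsf5 and Zglp1, described above with their windows, are also genes of the testis or germ cells and were left out of that group. Further starts among the 18 follow. Hes7, an oscillating repressor of the somite clock, stood at 92.5%, and Coro6, which encodes an actin-binding coronin, at 93.3%. Il12a, which encodes a subunit of the cytokine IL-12, stood at 90.3%, and the shared start region of the magnesium channel gene Trpm6 and the transcript Gm41814 at 92.1%. Gm128 stood at 90.3%. The Fignl2 run (chr15:101052765-101054687) was the longest of all members, with 204 measured CpGs over 1923 bp, and averaged 92.4%, with libraries from 90.0% to 94.6%. Fignl2 encodes a fidgetin-like ATPase.

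A run that covers a start was not always fully methylated at the start itself. In Fignl2 the 36 positions within 250 bp of the start averaged 84.6%, the other 276 averaged 93.4%, and the lowest position of any member, 48.1%, lay in this run. The 7 measured CpGs of its promoter window averaged 66.4%. In Gm128 the 19 positions within 250 bp of the start averaged 89.3% and the other 33 averaged 90.9%, and its lowest position, 60.2%, lay more than 250 bp downstream of the start, while a position 1 bp from the start stood at 65.6%. In Mael the lowest position stood at 64.5%, upstream of the start. Hsf5 averaged 98.4% within 250 bp and 95.5% beyond. It had no measured position between -111 and 44 bp from the start, so its start itself carried no level. The plot of level against distance from the start shows these profiles.

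**Figure D1:**
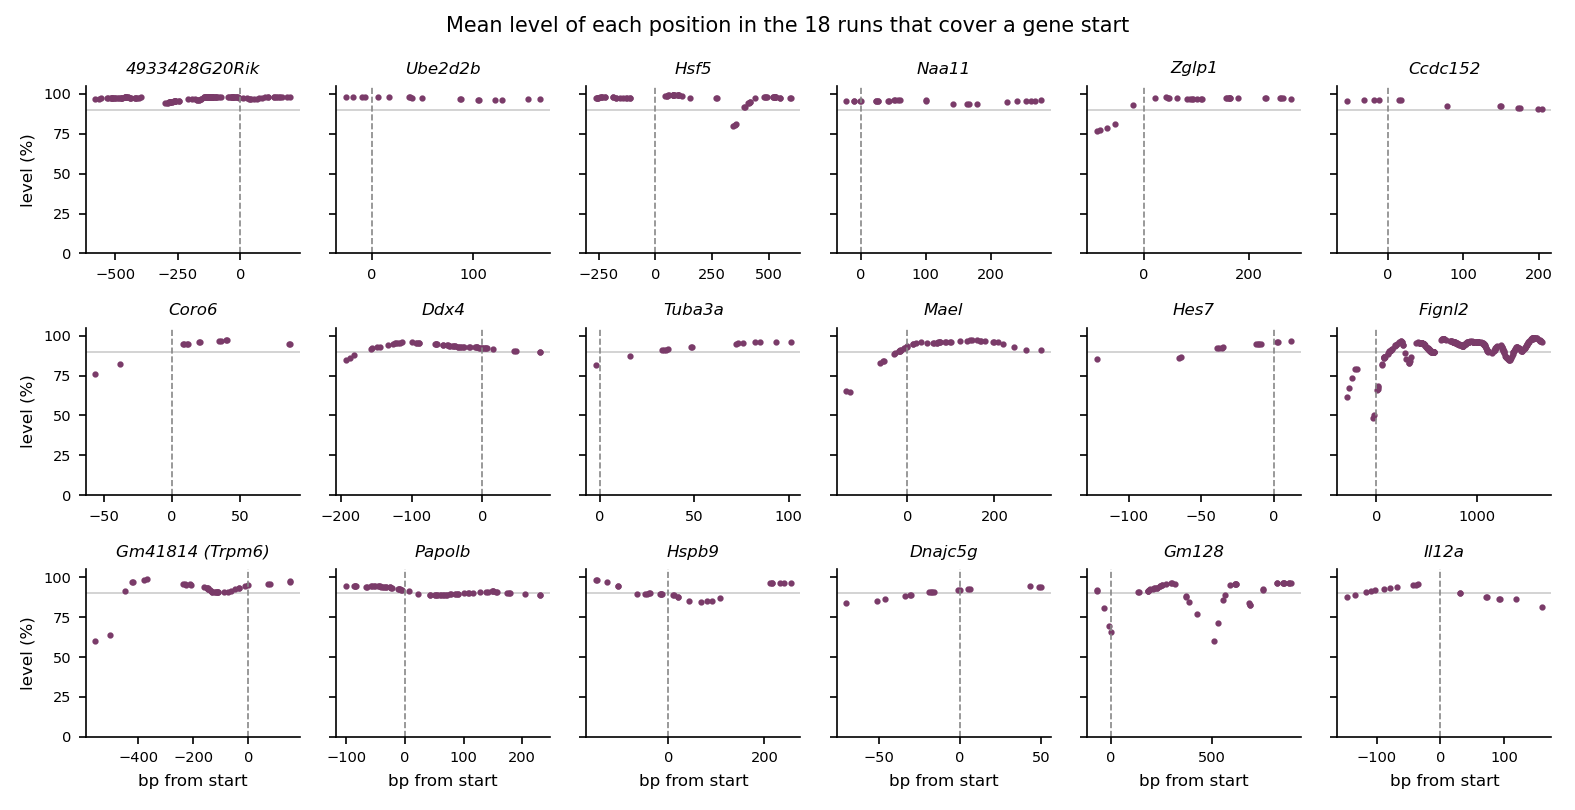
Mean level over 27 libraries (%) of each measured position against its distance from the gene start in bp along the gene's strand, for the 18 runs that cover a start; the dashed line is the start and the grey line is 90%. Levels dip at the start in Fignl2 (48.1% at the lowest position) and upstream of it in Mael (64.5%), and stay above 94% throughout 4933428G20Rik.

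Fully methylated runs made up a far smaller share of the runs at gene starts than of those 1 to 2 kb away. Start positions were available for 197 of the 204 runs, the other 7 lying on chromosome 18. Of these 197, 18 (9.14%) covered a start, 45 (22.8%) lay within 500 bp, 77 (39.1%) within 1 kb and 160 (81.2%) within 2 kb. Among low runs 53.3% covered a start, among intermediate runs 30.1% and among all autosomal runs 45.5%. The median distance to the nearest start was 1290 bp for fully methylated runs, 365 bp for intermediate runs and 40 bp for all runs. Runs share genes and neighbourhoods, so these shares describe this table and carry no test.

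Read by distance, the share of runs that were fully methylated was 18 of 6317 (0.285%) where the run covered a start and 27 of 3302 (0.818%) at 1 to 500 bp. It was 32 of 939 (3.41%) at 501 to 1000 bp, 43 of 498 (8.63%) at 1001 to 1500 bp and 40 of 307 (13%) at 1501 to 2000 bp. The share at the largest of these distances was the highest. It was 10 of 218 (4.59%) at 2001 to 5000 bp and 27 of 2307 (1.17%) farther off, but those runs include ones whose own gene start is missing from the start table, so their distances are upper limits. At 1501 to 2000 bp the share was 29 of 205 (14.1%) downstream and 11 of 102 (10.8%) upstream of the start. The median level of all runs moved with distance in the same way, from 3.07% for runs covering a start to 45.6% at 1501 to 2000 bp.

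**Figure D2:**
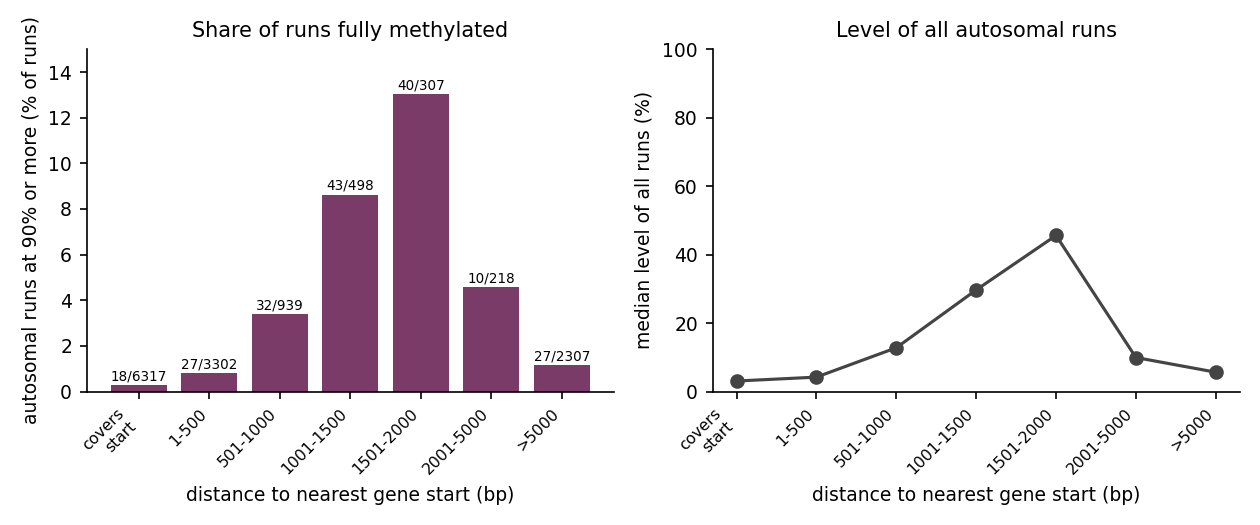
Left, share of autosomal runs with a mean level of 90% or more (%) by distance to the nearest gene start (bp), with counts above the bars; right, median level of all autosomal runs (%) in the same bins. The share rises from 0.285% for runs covering a start to 13% at 1501 to 2000 bp; the runs beyond 2000 bp include genes whose start is missing from the table.

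Most fully methylated runs sat inside genes. Of the 204 runs, 185 (90.7%) overlapped an annotated gene and 178 (87.3%) a protein-coding gene, while 19 lay outside genes. The shares over all autosomal runs were 94.7% and 92.9%, so most runs of every level lay in genes. Relative to the nearest start, 120 runs lay downstream, 59 upstream and 18 across it. Over all autosomal runs 4793 lay downstream, 2778 upstream and 6317 across it, so an excess downstream is not particular to members. The gene tables do not separate exons from introns.

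In 51 cases a fully methylated run lay within 2000 bp of a start whose own run was under 10%. The median level of those start runs was 2.82% (1.14% to 9.57%), against a median of 94.9% for the 51 members, which lay 573 to 1968 bp from the start. Of these 51, 36 lay downstream and 15 upstream, and all autosomal runs also lay downstream more often (4793 against 2778). Dtymk, which encodes thymidylate kinase, had 97.7% in the run 1157 bp downstream (chr1:93800530-93800777) and 3.60% at its start. Ppp1r15a, which encodes the phosphatase subunit GADD34, had 97.6% at 1795 bp downstream (chr7:45524323-45524473) and 1.87% at its start. Klf2, a Krüppel-like factor of blood vessels and stem cells, had 90.0% at 1804 bp (chr8:72320866-72321025) and 3.79% at its start. Ebf3, which encodes a transcription factor of the EBF family, had 97.0% at 801 bp upstream (chr7:137315246-137315561) and 5.56% at its start.

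Starts were not always low near a member. In 28 cases the start run had between 10% and 90%, with a median of 40.2%. In 46 cases no run lay within 250 bp of the start, and in 44 the table gave no start within 2000 bp, the 7 runs on chromosome 18 included. In 13 cases the member itself lay within 250 bp of the start, and in 4 another member did. The nearest low run was within 500 bp of 6 members, within 1000 bp of 29 and within 2000 bp of 73, and the closest lay 409 bp away.

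The highest levels were in Hoxa2, a homeobox gene of hindbrain patterning, with 98.1% (chr6:52163296-52163502), and in Tmem198b, with 98.1% (chr10:128802179-128802398). In the Hoxa2 run the libraries ran from 95.0% over a median of 98.4% to 100%, and in the Tmem198b run from 93.3% over 97.7% to 100%. A further Hoxa2 run, 306 bp from the start (chr6:52164139-52164525), held 34 CpGs at 97.6% with an SD of 1.07 points. Lrrc4, which encodes a synaptic adhesion protein and lies within Snd1, held runs at 97.9% (chr6:28830123-28830540) and 97.7% (chr6:28831342-28831683), the latter 64 bp downstream of the start. Isyna1, which encodes inositol-3-phosphate synthase, had 97.6% (chr8:70595817-70596434), and the run at its start had 18.3%.

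The threshold of 90% did not fall in a gap. Just inside it were runs in Irs3, Klf2 and 1700001P01Rik, at 90.03%, 90.03% and 90.09%. Just outside it were runs in Zbtb45 at 89.91%, Cxxc1 at 89.92% and Mylk2 at 90.00% after rounding. With a threshold of 85% the number of runs was 342, and with 95% it was 86.

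Members were spread over all 19 autosomes, with 24 on chromosome 7, 20 on chromosome 11 and 17 each on chromosomes 1 and 8. The share of runs that were fully methylated was 2.22% on chromosome 7 and 0.439% on chromosome 16. Joined at 10 kb, the 204 runs formed 189 groups, of which 14 held more than 1 run. Tmem59l had 3 runs in 1 group, and Hoxa2, Hoxa5, Klhl41, Nnat and Lrrc4 each had a pair. Paired runs of a gene are thus not separate loci. No member overlapped an annotated miRNA hairpin.

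Fully methylated runs were short and held fewer measured CpGs per base than most runs. Their median length was 219 bp (66 to 1923 bp), against 375 bp for intermediate and 508 bp for low runs. A member held a median of 16 positions (10 to 312) and 12 distinct CpGs (6 to 204), since both strands of a CpG can each give a position. CpG density here counts measured CpGs only, so it can lie below the density of the sequence. In the Hsf5 window, which lies inside its run, 12 of 34 CpGs were measured. Whether the share of CpGs measured differs between classes of runs was not tested. CpG density had a median of 5.57 CpGs per 100 bp (quartiles 4.51 and 6.83), against 6.18 in intermediate and 7.77 in low runs. The share of runs fully methylated was 2.83% under 4 CpGs per 100 bp and 3.00% at 4 to 6. It was 1.10% at 6 to 8, 0.422% at 8 to 10, 0.794% at 10 to 12 and 0.611% at 12 or more.

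The density of measured CpGs and distance from the start move together, so this density was also read at matched distance. Where a run covered the start, the median was 6.69 CpGs per 100 bp in the 18 members and 7.64 in the 6299 other runs. At 1 to 500 bp it was 6.20 against 7.41, and at 1001 to 1500 bp 4.89 against 5.75. At 501 to 1000 bp the medians were 5.87 and 6.00, and at 1501 to 2000 bp 5.53 and 5.67, a smaller gap. Density was the lower of the pair in members in each of the 7 distance classes, by amounts that differed widely.

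**Figure D3:**
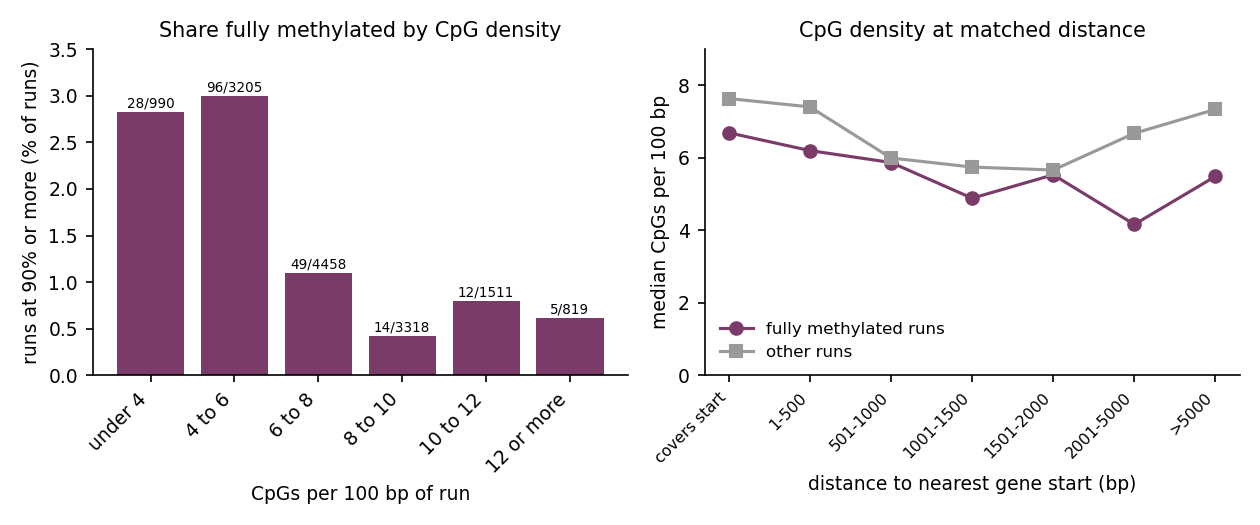
Left, share of autosomal runs at 90% or more (%) by measured CpGs per 100 bp, with counts above the bars. Right, median measured CpGs per 100 bp of fully methylated and other runs by distance to the nearest gene start (bp). The share is highest under 6 CpGs per 100 bp (2.83% and 3.00%), and the medians nearly meet at 501 to 1000 and 1501 to 2000 bp.

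Some members held many measured CpGs per 100 bp all the same. The densest, in the F-box gene Fbxl8 (chr8:105268712-105268799), held 15 CpGs in 88 bp, or 17.0 per 100 bp, at a level of 96.8%. Bhmg1 (chr7:19118198-19118334), with its start 10 bp away, held 14.6 per 100 bp at 92.8%, and its libraries ran from 81.9% to 100%. Ddx4 held 13.8 per 100 bp and Papolb 12.3. Next came a run in the gamma protocadherin cluster at 12.2 per 100 bp and 95.0%. The sparsest were runs in Tead2, a TEAD transcription factor (2.25 per 100 bp at 93.4%), Zfp385a (2.57 at 90.5%), Lrrc4 (2.63 at 97.9%), Angpt2, within Mcph1 (2.67 at 91.0%), and upstream of the T-box gene Tbx18 (2.68 at 95.3%).

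The runs with the most positions had levels across the range of the members. After Fignl2 with 312 positions came 4933428G20Rik with 129 at 97.4%, the homeobox gene Hoxa5 with 101 at 96.0%, Gp1bb with 91 at 92.3% and Gpr62 with 89 at 95.9%. Gp1bb encodes a platelet glycoprotein and Gpr62 an orphan receptor. In the Hoxa5 run (chr6:52203847-52204320), 267 bp downstream of the start, the libraries ran from 93.3% over 96.4% to 98.2%.

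Among the 15 gene lists, germ cell and meiosis genes held members most often apart from the clustered protocadherins. In these lists a gene is said to hold a run that overlaps it or lies within 1 kb of either of its edges. Of 43 such genes with a measured run, 6 (14.0%) held a member, Ddx4, Mael, Tdrd1, Stag3, Msh4 and Tuba3a, and the median level of the 48 runs at these genes was 75.6%. Over all 12416 protein-coding genes with a run, 245 (1.97%) held a member and the median run level was 3.99%. Stag3, which encodes a meiotic cohesin subunit, stood at 97.0% (chr5:138280890-138281114). Msh4, which acts in meiotic crossover, stood at 97.2% (chr3:153905720-153906055), and Tdrd1, a Tudor domain gene of the piRNA pathway, at 92.9% (chr19:56826384-56826553). These counts describe genes chosen with earlier results of these data known and carry no test.

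No core clock gene held a member, out of 23 with a run, and the median level of their 35 runs was 3.70%. With 1.97% of all protein-coding genes holding a member, a list of this size could hold none without differing from them. Of 30 muscle structure genes 1 did (3.33%). That gene was Klhl41, which encodes a kelch protein of the sarcomere. Its runs stood at 97.2% (chr2:69670518-69670739) and 96.5% (chr2:69670968-69671064), 398 and 848 bp downstream of the start. DNA methylation does not give expression, so these lists check no cell identity.

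Imprinted genes, of which normally 1 parental copy is methylated at the control region, held 3 member runs in 2 of 36 genes. Nnat, expressed from the paternal copy and lying within Blcap, had 96.7% in a run 20 bp downstream of its start (chr2:157560098-157560478), with libraries from 89.5% over 96.9% to 99.6%. No library lay far below 90% there, but the run was chosen by its mean over these same libraries. A second Nnat run stood at 93.6% (chr2:157561444-157561859). Jade1 had 91.8% in a run 1775 bp from its start. The median level of the 41 runs at imprinted genes was 41.6%.

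Of 170 Hox and developmental regulators 7 held a member (4.12%), among them Hoxa2, Hoxa5 and Lhx6. Of 297 zinc finger genes 10 did (3.37%), with Zbtb22 at 96.6% and Zfp579 at 96.5% the highest. Of 13 pluripotency genes 1 did (Klf2, 7.69%), of 16 DNA methylation genes 1 (6.25%) and of 138 ion channel genes 1 (Trpm6, 0.725%). The share over all protein-coding genes was 1.97%, and in a short list 1 gene sets the share. The DNA methylation gene was Dnmt1 itself, at 93.2% in a run 992 bp downstream of its start (chr9:20958754-20958896). Keratin (15 genes with a run), olfactory receptor (9), immune (3) and fibroblast and adipocyte genes (9) held no member. In the protocadherin cluster 3 member runs touch 22 of 40 genes, because the nested gene models share the same interval.

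Within a run, most positions were high. Of 4558 member positions, 3966 (87.0%) had a mean of 90% or more, and 74 positions in 32 runs were under 80%. The outer parts of a run (20% of its positions at either end) were lower than its inner part in 123 of 204 runs, with a median difference of -0.29 points. Neighbouring levels are not independent. Deviations of the libraries from a position's own mean had a Pearson correlation of 1.00 over 1314 pairs of member positions 1 bp apart. It was 0.825 over 551 pairs spaced 21 to 40 bp and 0.0172 over 27 pairs spaced 81 to 100 bp, a description across positions that share libraries. A short run therefore carries few separate measurements.

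The mean level of the members moved by under 1 point over the time course. The mean over the 204 runs was 94.4% ± 0.0695 (SD, n = 3) at 12 h, 94.1% ± 0.347 at 18 h, 93.9% ± 0.248 at 24 h, 94.1% ± 0.258 at 30 h and 94.0% ± 0.297 at 36 h. It was 93.9% ± 0.237 at 42 h, 93.9% ± 0.390 at 48 h, 94.0% ± 0.465 at 54 h and 94.0% ± 0.155 at 60 h. These 9 means span 0.470 points, against a pooled SD within time points of 0.296 points. The lowest library mean was 93.5% (48 h, replicate 1) and the highest 94.5% (54 h, replicate 3). The libraries numbered 1 were the lowest of their time point at 8 of 9 times, with a mean of 93.8% against 94.1% and 94.2% for those numbered 2 and 3.

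Single libraries were rarely far below 90% in a run. Members were chosen by their mean over these same libraries, which by itself keeps low values few, so the counts are a description. Of 5508 values (204 runs in 27 libraries), 21 were under 80% and 3 under 70%. The 21 values lay in 16 runs and 13 libraries, with at most 3 in 1 library. In 188 runs every library was at 80% or more, and in 57 runs every library was at 90% or more. The share of member positions at exactly 100% ran from 3.93% (24 h, replicate 3) over a median of 11.9% to 32.2% (12 h, replicate 3). The part of this share in the results was not tested.

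**Figure D4:**
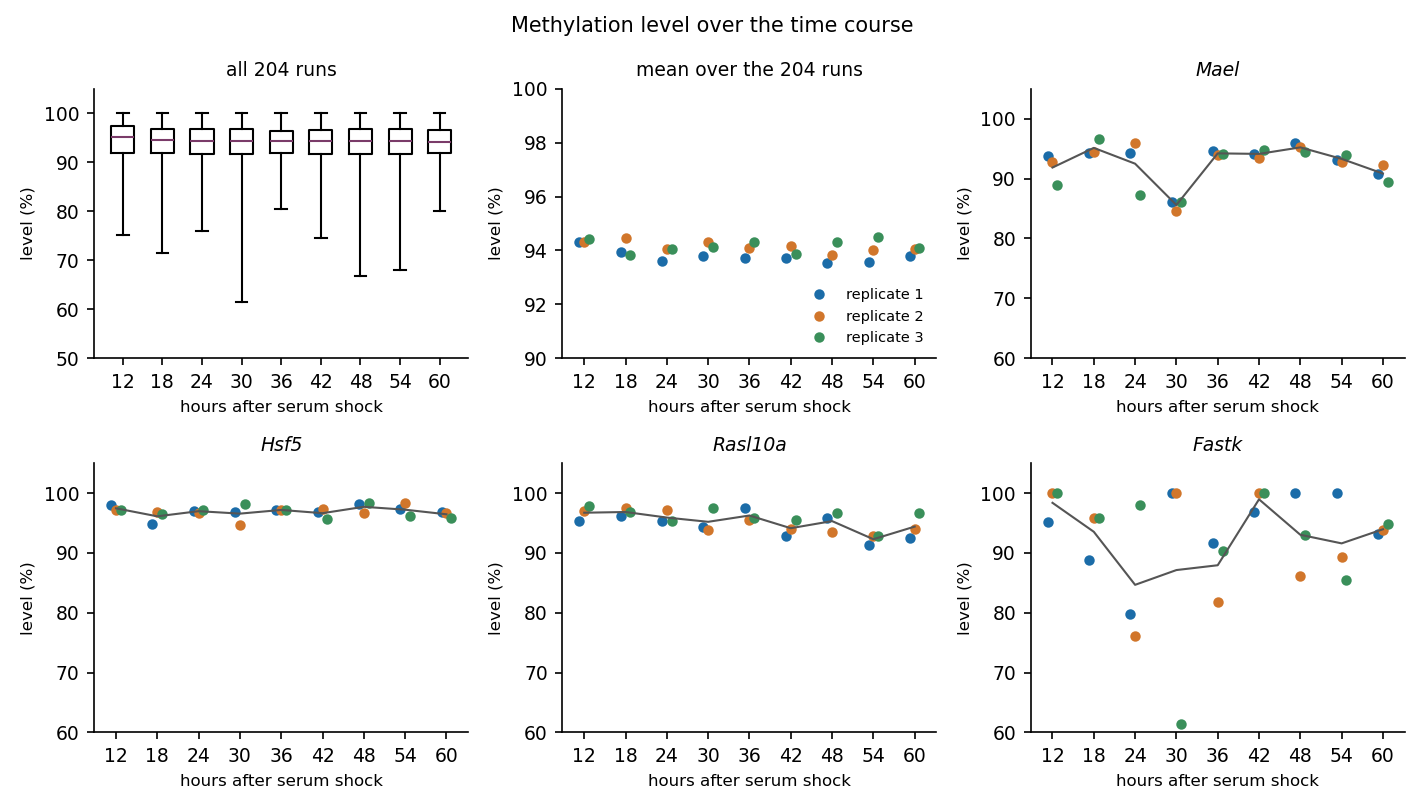
Methylation level (%) against hours after the serum shock for all 204 fully methylated runs (boxes are quartiles, whiskers the full range over runs and libraries), the mean over the 204 runs in each library, and 4 single runs, with 1 point a library coloured by replicate number and lines through the time means. Library means lie between 93.5% and 94.5%; Mael is lowest in all 3 libraries at 30 h, and Fastk has the lowest single value, 61.4%.

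The spread of a run over libraries was small but varied between runs. The SD over 27 libraries had a median of 2.64 points (0.917 to 9.12), against 4.44 points in intermediate and 1.60 points in low runs. Within time points it had a median of 2.56 points. A level near the end of the scale leaves little room to vary, so these SDs are not comparable as stability alone. The steadiest runs within time points were upstream of Nop10 (0.918 points), in Hsf5 (0.927), Fignl2 (0.960) and Hoxa2 (1.16), and in Ndst2 (1.18).

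The most variable run lay in Fastk (chr5:24444042-24444184), with an SD within time points of 9.40 points. Its libraries ran from 61.4% (30 h, replicate 3) over a median of 94.8% to 100%. It held 11 positions, and both other libraries at 30 h read 100%. The next were runs in Hoxa3 and Hoxa4 (7.33 points), Hsf4 (6.53), Hus1b (6.47) and Zdhhc12 (6.47). All 5 of these runs had 24 or fewer positions, as did most members, whose upper quartile was 22 positions. Fignl2, with 312, was among the steadiest. Whether the spread goes with the number of positions was not tested.

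The time points were then compared for all 14720 runs with limma on percentage points, and p-values were adjusted over all runs (Benjamini-Hochberg). A 24 h rhythm was called in none of the runs (0% at an adjusted p under 0.05), and so in 0 of the 204 members. At an unadjusted p under 0.05 it was 633 runs (4.3%) and 12 members (5.88%), and the smallest adjusted p among members was 0.966. The fitted amplitude of members had a median of 0.840 points, its upper 95% limit was under 5 points in 187 members and under 3 points in 116. Any difference between time points was called in 1 run (0.00679%), which was not a member but a low run in Pnpla2. At an unadjusted p under 0.05 it was 637 runs (4.33%) and 9 members (4.41%). The run was lost without 48 h replicate 1, and leaving out each library in turn gave 0 to 8 called runs. The shares of members at an unadjusted p were not tested against the background, since runs are not replicates.

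A linear trend was called in 0 runs, and at an unadjusted p under 0.05 in 734 runs (4.99%) and 16 members (7.84%), with a smallest adjusted p among members of 0.973. Slopes of members had a median of -0.18 points per 48 h, from -6.95 to 6.37, with 114 negative and 90 positive. The median over all runs was -0.02 points. Negative slopes made up 55.9% of the members and 50.7% of all runs, a gap that was not tested. The 95% interval of the slope lay within 5 points of 0 in 121 members and within 10 points in 198. The contrast of 60 h with 12 h was called in 0 runs, and at an unadjusted p under 0.05 in 759 runs (5.16%) and 13 members (6.37%). The members' differences of 60 h minus 12 h had a median of -0.48 points and ran from -8.38 to 9.60. Over all runs the median difference was -0.07 points.

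**Figure D5:**
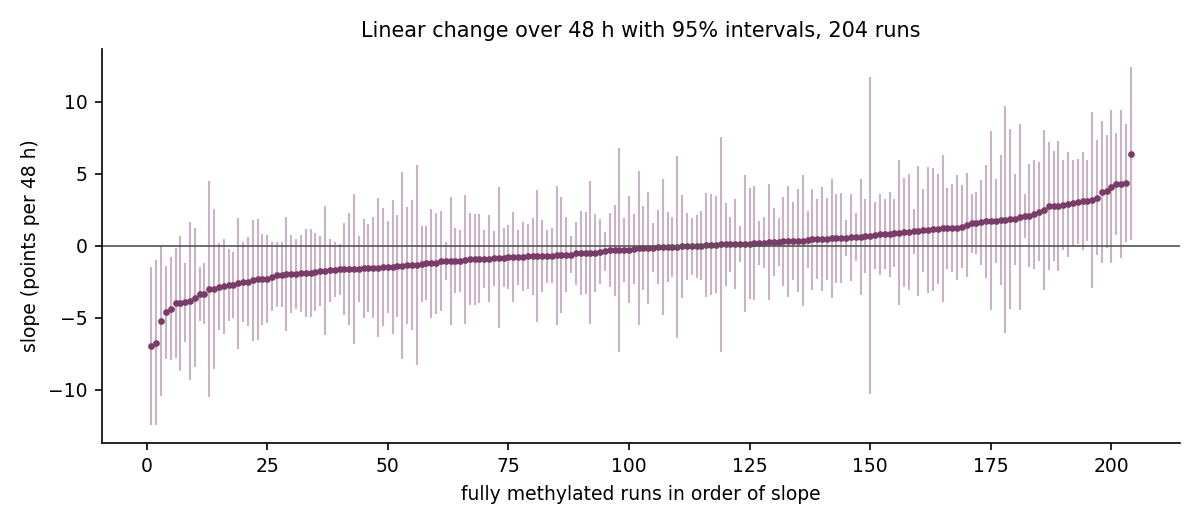
Slope of the level in points per 48 h (dots) with its 95% interval (lines) for each of the 204 fully methylated runs, in order of slope. Slopes run from -6.95 to 6.37 points, and none passed the adjusted threshold.

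The run at the Mael start had the smallest time point p of the members. It read 93.9%, 92.7% and 89.0% at 12 h, 94.4%, 94.4% and 96.7% at 18 h, and 94.3%, 95.9% and 87.3% at 24 h. At 30 h it read 86.2%, 84.5% and 86.1%. All 3 libraries of 30 h lay below the lowest library of any other time. It then read 94.6%, 94.0% and 94.1% at 36 h, 94.2%, 93.5% and 94.8% at 42 h, and 95.9%, 95.4% and 94.4% at 48 h. At 54 h it read 93.2%, 92.8% and 93.9%, and at 60 h 90.8%, 92.3% and 89.5%. The mean at 30 h was 85.6% ± 0.918 (SD, n = 3), the next lowest was 90.9% ± 1.42 at 60 h, and 30 h was the lowest time at 27 of the 49 positions. The difference between time points had an unadjusted p of 0.000159 and an adjusted p of 0.334 (limma), so it did not pass. Without the library 24 h replicate 3, the adjusted p was 0.00688, and over all alternatives it ran from 0.00688 to 0.990.

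The other members with small p-values had effects of a few points. Rasl10a, a Ras-like gene, had the smallest trend p, with a slope of -3.36 ± 0.901 (SE) points per 48 h and an adjusted p of 0.973 (limma). Its run (chr11:5059227-5059516) read 95.3%, 97.0% and 97.9% at 12 h and 92.4%, 94.1% and 96.7% at 60 h, so the 3 libraries at the ends of the course overlap. The lowest time was 54 h, with 91.3%, 92.8% and 92.8%. Gm128 had a slope of -3.33 points, the run upstream of Gatm -4.64 points, the run in Pgghg near Ifitm5 -3.94 points and Gpr62 2.05 points, each per 48 h and each with an adjusted p of 0.988.

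In the rhythm test the smallest p-values among members belonged to Pigc, a gene of GPI anchor synthesis, with an amplitude of 2.38 ± 0.567 (SE) points, and to Zfp385a, with 4.38 ± 1.15 points. Ndst2, which modifies heparan sulfate, followed with 1.23 points, Mael with 2.68 points and Tuba3a with 1.79 points. All had an adjusted p of 0.966 (limma). The Pigc run (chr1:161970714-161970872) read 96.1%, 98.2% and 97.5% at 12 h, 94.1%, 94.1% and 95.3% at 24 h, 94.1%, 97.4% and 98.4% at 36 h and 92.5%, 94.0% and 91.6% at 48 h. At 60 h it read 93.4%, 96.3% and 96.8%. The Pigc libraries at 12 h all lay above those at 24 h and 48 h, while those at 24 h overlapped those at 36 h and at 60 h. In the time point test Hspa2, a chaperone gene of the testis, Ndst2, Rasl10a and Klhl41 followed Mael, each with an adjusted p of 0.987 (limma).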

How the data were processed

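DNA methylation was measured by RRBS in 27 libraries of C2C12 myotubes. The submitters' processing notes name Bismark 0.14.4 with Bowtie2, Trim Galore 0.4.0, cutadapt 1.9.1 and the build mm10, and the sources used here do not give their settings. The authors deposited a single file of methylation levels as a fraction from 0 to 1. Without read counts in it, depth is unknown, and levels carry neither counting intervals nor weights. Positions count from 1: of 232850 positions in RefSeq promoter windows, 99.98% fell on a CpG.

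Runs were built from positions with a level in all libraries and averaged over positions, and levels were multiplied to percent. All 14720 runs were fitted in limma 3.58.1 (R 4.3.3) with a 24 h cosine and sine, the time point as a factor, linear time per 48 h, and 60 h against 12 h. The rhythm and time point tests were moderated F tests, and those of the trend and of 60 h against 12 h were two-sided. All were adjusted by Benjamini-Hochberg at 0.05, and the scripts were tested on simulated data. The rest used scipy 1.17.1, pandas 2.3.3 and numpy 2.4.6 in Python 3.11.15, with matplotlib 3.10.9 for plots. Gene starts and bodies come from RefSeq tables of GRCm38.p6 that are not complete and hold no start on chromosome 18.

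Members and gene lists were chosen with earlier results of these data known. Named members were the 8 highest levels, the 5 with the most positions, the 5 extremes of CpG density and of SD within time points, up to 20 at or within 1 kb of a start by level, the 5 smallest p-values of the rhythm, time point and trend tests, members at listed genes, and 3 on each side of the threshold. The other runs that cover a start were added after their values were seen. Alternatives changed the run definition, scale, spread model, filters, covariates, period and libraries. The list of myogenic regulators is not reported here.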

Additional observations from a re-analysis of the deposited data

How the results depend on the processing

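The number of members was 204. It was 342 and 86 at thresholds of 85% and 95%, and 496 and 66 with at least 5 and 20 positions, and leaving out 1 library gave 201 to 208. The share within a set distance of a start was 22.8% at 500 bp and 86.3% at 5 kb. The range of the time means over members was 0.920 points with the median over members, and 0.430 to 0.679 points without 1 library each. In the tests of rhythm, of trend and of 60 h against 12 h, no member was called under any alternative run. Time point differences were called in 1 run, and in 0 with M-values, with the median over positions, with at least 20 positions, and without all libraries numbered 1 or 2. They were called in 2 runs with the spread modelled as a trend on the level and in 2 without moderation.

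Leaving out 1 library gave 0 to 8 runs for time points (0 without 48 h replicate 1, 8 without 48 h replicate 2, 3 each without 18 h replicate 1, 30 h replicate 2 and 42 h replicate 1, and 2 each without 12 h replicate 1, 24 h replicate 3, 30 h replicate 3, 36 h replicate 3, 42 h replicate 3, 48 h replicate 3, 54 h replicate 1 and 60 h replicate 2), with 0 to 1 member (Mael, without 24 h replicate 3), 0 to 1 run for the trend (1 without 48 h replicate 1), and 0 to 2 for 60 h against 12 h (2 without 12 h replicate 2, 1 each without 12 h replicate 3 and 60 h replicate 3). With the replicate number as a block, 2 runs were called. Nothing in the labels ties a number to a shared culture or day, and the deviations of same-numbered libraries correlated at 0.00663 on average (-0.0343 to 0.0609), so the numbers were not taken as pairs. That 16 of 27 libraries correlated best with their own number, and that those numbered 1 had the lowest mean over members at 8 of 9 times, are hints from the data, not the design. The levels of Hsf5 (98.5%), Zglp1 (97.2%), Coro6 (95.5%), Fignl2 (94.2%) and Gm128 (93.7%) moved with the median over positions. Of the comparisons of other named results with their alternatives, 696 were counted as unchanged, 5 as moved and 1 as newly called. A test counted as unchanged where it stayed uncalled, with the sign checked for the trend only. A level counted as unchanged where it shifted by less than its SD over the 27 libraries. No member was called in the main fits, so staying uncalled says little about direction. The causes of the shifts were not tested. Without read counts, differences of a few points in short runs cannot be judged against counting error.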
